A study of Homo sapiens with 10 samples.

Results

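The 40 genes described here encode proteins of the nuclear pore complex and of the machinery that carries cargo through it: 27 nucleoporins, 3 proteins of the RAN GTPase cycle, 4 importin alpha adaptors, 4 import receptors of the importin beta family and 2 exportins. They were chosen by symbol from a list whose rule uses no measured value, although the list was drawn up with earlier results of these data known. All 40 listed symbols were found among the 58302 gene IDs of the deposited table. Each passed the filter on low values, and the lowest value of any of them in any library was 13.84 CPM (a gene's reads scaled to a common library total).

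RNA sequencing was done on KYSE-410, an established human cell line of esophageal squamous carcinoma. In the first arm, 3 libraries came from cells given K149 at 2 µM and 3 from cells given solvent, and in the second arm 2 libraries came from cells given AS1949490 at 20 µM and 2 from cells given solvent. The solvent was DMSO at 0.1%, all cells were collected after 48 h, and both compounds are inhibitors of SHIP2, a lipid phosphatase that acts on phosphoinositides. As a model this is 1 line, each inhibitor was given at 1 dose, the doses differ between the compounds, and no label states whether replicate libraries came from separate cultures. The p-values therefore cover the spread among these libraries, which may be technical.

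The nuclear pore complex is built from repeated subunits: an outer ring of Y-shaped complexes on both faces, an inner ring that lines the channel, membrane proteins that hold the pore in the nuclear envelope, and flexible nucleoporins that fill the channel, reach into the cytoplasm or form a basket in the nucleus. Importins carry cargo in and exportins carry cargo out, and the small GTPase RAN gives the direction, because its GTP form is made on chromatin by RCC1 and is consumed in the cytoplasm. Cells that divide assemble new pores both when the envelope reforms after mitosis and during interphase, and several of these proteins also act at kinetochores or on the spindle.

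In each library the CPM values summed to the total that the unit defines, and 1 step of the values was about 0.05 CPM, far below the level of any of the 40 genes. With each CPM step taken as 1 read, replicates were further apart than sampling noise in every group, with a chi-square per degree of freedom between 1.38 and 10.2 over the pairs. The step is not explained in the sources, and reads could not be recovered for K149 replicate 3 nor, in the AS1949490 arm, for DMSO replicate 1, so the values of their pairs are less certain. The libraries that stood apart were K149 replicate 2, at 7.28 and 9.04 against the other K149 libraries, and the 2 DMSO libraries of the AS1949490 arm, at 10.2 against each other. Summed over 10 squamous epithelial markers the level was 496 to 535 CPM with K149 against 681 to 695 CPM in its controls, and 974 to 1058 CPM with AS1949490 against 899 to 916 CPM. Of the 9 of these markers that were tested, 6 fell and 1 rose with K149 in limma (median log2 fold -0.66), and 2 fell and 3 rose with AS1949490 (median -0.15), and their part in the results for the 40 genes was not tested. The 5 immune markers together stayed at or below 0.65 CPM. The 5 fibroblast markers together had 230 to 275 CPM in the K149 arm and 38.4 to 45.9 CPM in the AS1949490 arm, mostly from LUM in the K149 arm. The arms therefore differ at their solvent controls, arm and batch cannot be told apart, and each inhibitor was compared with the DMSO libraries of its own arm. In bulk RNA, fewer cells of a kind and less RNA per cell cannot be told apart.

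Most of the genes had lower transcript levels with K149. A call here is an adjusted p under 0.05 in limma, adjusted over all 17837 genes tested, and log2 folds use the log2(CPM + 1) scale, with the standard error (SE). With K149, 31 of the 40 genes fell and 3 rose, against a background of 30.6% of all genes tested that fell and 35.8% that rose. Their median log2 fold was -0.63, against 0.04 over all genes tested. Of the 40 genes, 10 fell at least 2-fold (25.0%, against 5.56% of all genes tested). With AS1949490, 21 fell and 6 rose, against 19.5% and 32.1% of all genes tested, and the median log2 fold was -0.16, against 0.08 over all genes. None of the 40 moved 2-fold with AS1949490. Such moves were rare among all genes tested, where 0.835% fell and 352 of 17837 rose at least 2-fold with AS1949490. The count among the 40 was thus near the background. Without K149 replicate 2 the K149 counts were the same, 31 and 3. Without DMSO replicate 1 or 2 of the AS1949490 arm, 20 or 17 genes fell and 5 or 6 rose with AS1949490. DESeq2 called 3 rises with AS1949490, and edgeR on the 8 libraries whose whole reads could be recovered, which leaves out DMSO replicate 1 of that arm, called 2, RANBP2 and TNPO1. Summed over the 40 genes, the level was 7078, 7094 and 7187 CPM in the DMSO controls of K149 and 4591, 4378 and 4576 CPM with K149. For AS1949490 it was 7122 and 7360 CPM with DMSO and 6593 and 6551 CPM with the inhibitor. The groups did not overlap in either arm, although an exact two-sided permutation test of such a sum cannot go below p = 0.1 with 3 against 3 libraries, or below 0.333 with 2 against 2, and gave these values. Where the groups of a single gene are said below not to overlap, this only describes the libraries. The share of all genes tested that separate in this way was not counted, and separation is weak evidence with 2 against 2 libraries.

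**Figure D1:**
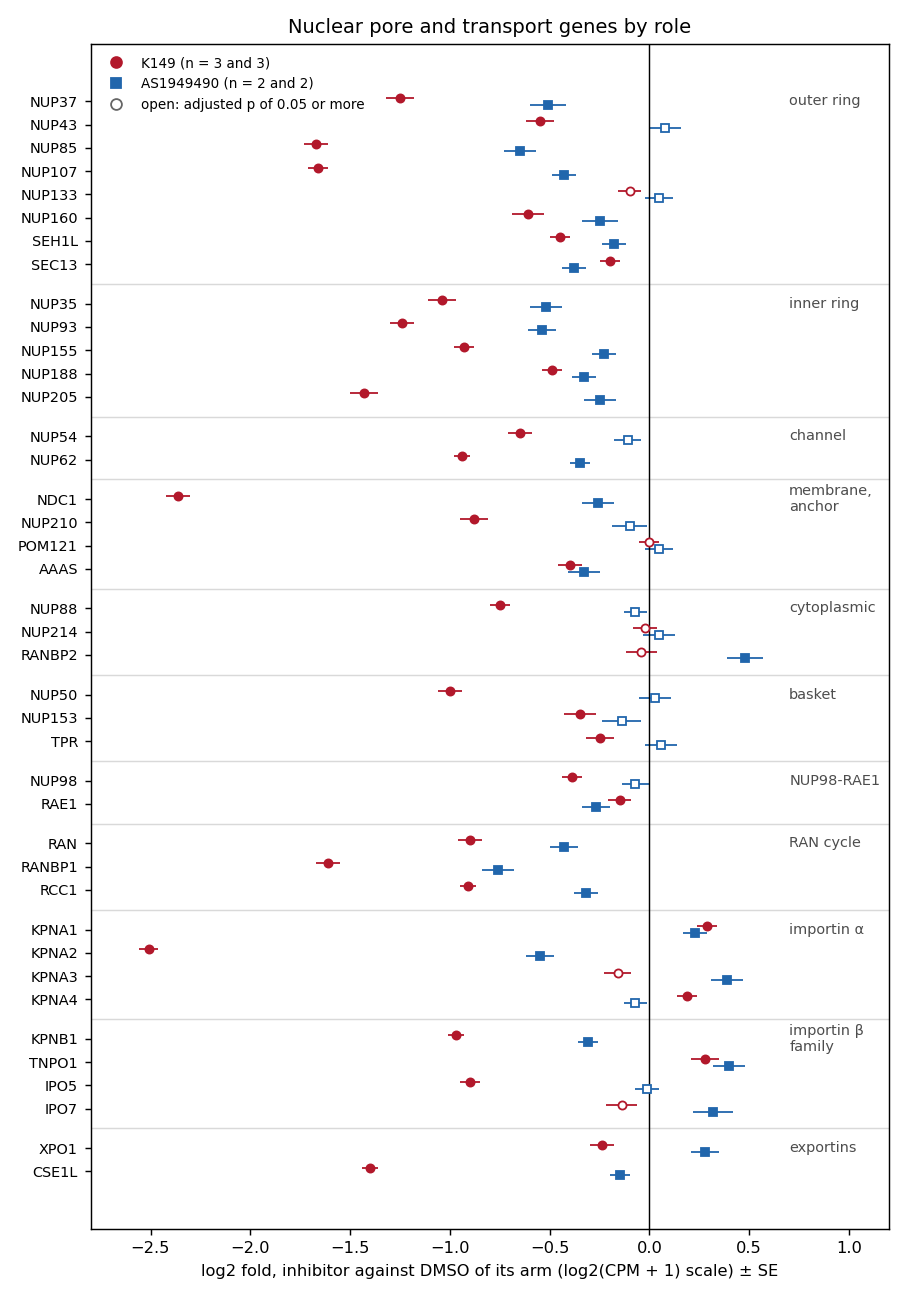
Log2 folds (horizontal axis, log2(CPM + 1) scale, ± SE) of the 40 genes, grouped by role, for K149 (circles, 3 against 3 libraries) and AS1949490 (squares, 2 against 2 libraries), with open symbols for genes without a call. The K149 values reach -2.51 for KPNA2 and -2.36 for NDC1, while the AS1949490 values lie between -0.76 and 0.48.

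The largest fall was that of KPNA2 (ENSG00000182481, chr17:68035519-68046842, plus strand, hg38), an importin alpha adaptor that binds classical nuclear localization signals. KPNA2 had 375.9, 395.4 and 385.8 CPM in the DMSO libraries and 71.16, 66.47 and 63.03 CPM with K149. Every K149 library was below every DMSO library, and the mean was 17.3% of the DMSO mean. The log2 fold of KPNA2 was -2.51 ± 0.05 (SE, adjusted p = 5.69e-14). In the other arm it had 349.9 and 327.1 CPM in the DMSO libraries and 224.9 and 236.9 CPM with AS1949490, again without overlap, and the log2 fold was -0.55 ± 0.07 (SE, adjusted p = 1.93e-05). The effect of K149 on KPNA2 was lower than that of AS1949490 by a log2 difference of -1.96 ± 0.08 (SE, adjusted p = 6.36e-10).

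Next came NDC1 (ENSG00000058804, chr1:53765460-53838860, minus strand, hg38), a membrane protein that anchors the pore in the nuclear envelope. NDC1 had 137.9, 141.0 and 142.0 CPM in the DMSO libraries and 25.78, 24.99 and 28.77 CPM with K149. That is 18.9% of the DMSO mean, and the log2 fold was -2.36 ± 0.06 (SE, adjusted p = 9.2e-13). With AS1949490 the values were 94.57 and 108.6 CPM with DMSO and 85.94 and 82.79 CPM with the inhibitor, and the log2 fold of -0.26 ± 0.08 (SE, adjusted p = 0.0134) lost its call without DMSO replicate 2 (adjusted p = 0.111) or AS1949490 replicate 2 (adjusted p = 0.0842) of that arm. The difference between the effects on NDC1 was -2.1 ± 0.1 (SE, adjusted p = 2.14e-09).

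CSE1L (ENSG00000124207, chr20:49046246-49096960, plus strand, hg38) is the exportin that returns importin alpha to the cytoplasm. It had 575.4, 583.4 and 610.7 CPM in the DMSO libraries and 225.3, 221.1 and 221.5 CPM with K149. The K149 libraries lay within a few CPM of each other, at 37.7% of the DMSO mean, and the log2 fold of CSE1L was -1.4 ± 0.04 (SE, adjusted p = 3.24e-12). CSE1L in the other arm had 466.9 and 490.1 CPM in the DMSO libraries and 428.1 and 433.5 CPM with AS1949490. This smaller log2 fold of -0.15 ± 0.05 (SE, adjusted p = 0.0279) was no longer called without DMSO replicate 2 (adjusted p = 0.115), AS1949490 replicate 1 (0.12) or AS1949490 replicate 2 (0.0796) of that arm. Under TMM scaling the AS1949490 value of CSE1L was -0.24 (adjusted p = 0.00257). The effects on CSE1L differed by -1.25 ± 0.07 (SE, adjusted p = 7.03e-09).

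The other genes that fell at least 2-fold with K149 were NUP85, NUP107 and NUP37 of the outer ring, NUP205, NUP93 and NUP35 of the inner ring, and RANBP1 of the RAN cycle. NUP50, at a log2 fold of -1.0 ± 0.06 (SE, adjusted p = 6.41e-09) and 49.7% of the DMSO mean in CPM, lay just short of that limit on the log2(CPM + 1) scale. NUP35 lay just inside it at 46.9%.

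Promoter sequence was compared because these genes fell together with K149. The windows hold the bases just before the RefSeq transcription start (GRCh38.p14), which was available for 36 of the 40 genes and not for NUP43, KPNB1, KPNA4 and RANBP1. A single start per gene was used, and windows before any other start were not searched. Some windows lie inside the annotated gene, as that of NUP35 does (gene at chr2:183117513-183161680). The motifs searched on both strands in 250 bases were TTTGAA or TTCGAA (the cell cycle homology region, an element of promoters of cell cycle genes), CCAAT (the box bound by NF-Y), TTTCCCGC, TTTGGCGC, TTTCGCGC or TTTGCCGC (E2F), CACGTG (the E-box) and GCATGCGC (NRF1, whose matches can overlap on opposite strands). The 5 windows of genes that fell at least 2-fold with K149 and held the cell cycle homology region within 100 bases are printed first, and NUP107, NUP133 and KPNA1 follow as single examples of a gene that fell without it, a gene without a call and a gene that rose. Among genes not printed, NUP214 (no call) and TNPO1 (rose) each hold a CCAAT box within 100 bases, from -96 and -39. Each printed window is 100 bases long and written 5′ to 3′ on the strand of the gene, with the searched motifs in capitals (TTCAAA and ATTGG are TTTGAA and CCAAT on the opposite strand, and in NUP107 the capitals are a pair of overlapping NRF1 matches).
KPNA2, chr17:68035635-68035734, plus strand: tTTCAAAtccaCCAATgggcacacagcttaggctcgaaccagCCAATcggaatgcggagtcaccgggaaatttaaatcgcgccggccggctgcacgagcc
NDC1, chr1:53838297-53838396, minus strand: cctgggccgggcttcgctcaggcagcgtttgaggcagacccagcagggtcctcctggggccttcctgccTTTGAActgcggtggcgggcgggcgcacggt
CSE1L, chr20:49046212-49046311, plus strand: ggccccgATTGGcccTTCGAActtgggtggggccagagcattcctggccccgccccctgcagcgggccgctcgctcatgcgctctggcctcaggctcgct
NUP37, chr12:102120115-102120214, minus strand: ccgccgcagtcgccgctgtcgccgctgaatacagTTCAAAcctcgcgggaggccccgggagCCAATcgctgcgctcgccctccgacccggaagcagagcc
NUP35, chr2:183124343-183124442, plus strand: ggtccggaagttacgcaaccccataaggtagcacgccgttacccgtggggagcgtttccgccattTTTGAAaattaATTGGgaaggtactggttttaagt
NUP107, chr12:68686878-68686977, plus strand: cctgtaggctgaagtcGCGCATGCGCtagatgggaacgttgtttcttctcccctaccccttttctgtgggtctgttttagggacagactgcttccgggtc
NUP133, chr1:229508342-229508441, minus strand: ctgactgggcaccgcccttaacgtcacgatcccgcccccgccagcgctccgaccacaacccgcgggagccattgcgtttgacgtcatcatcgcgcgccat
KPNA1, chr3:122514940-122515039, minus strand: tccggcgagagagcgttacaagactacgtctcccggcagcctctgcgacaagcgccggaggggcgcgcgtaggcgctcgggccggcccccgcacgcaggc

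The cell cycle homology region was present in 9 of the 36 promoters (25.0%), against 14.3% of all 35116 promoters of the same length. Of the 9 genes with a promoter that fell at least 2-fold with K149, 6 held it: KPNA2, NDC1, CSE1L, NUP37, NUP35 and NUP205. Of the other 27 genes, 3 held it: NUP98, NUP153 and IPO7. A CCAAT box was present in 14 of the 36 promoters (38.9%), against 32.0% of all promoters, in 7 of the 9 genes that fell at least 2-fold and in 7 of the other 27. In KPNA2, a pair of CCAAT boxes lies downstream of the TTTGAA match. The NRF1 motif was present in 4 promoters (11.1%, against 2.63%), those of NUP107, NUP50, NUP62 and RCC1. The E-box was present in 5 (13.9%, against 6.34%), those of RAN, NUP50, NUP188, KPNA3 and IPO7. None of these fell at least 2-fold on the log2(CPM + 1) scale, although NUP50 was at 49.7% of the DMSO mean in CPM. The E2F letters were found in 0 of 36, against 2.79% of all promoters. A match is a run of letters in a window and was not tested as a site. The split at 2-fold uses the K149 values of these same data. The background covers all promoters, and motif shares among all tested genes that fell at least 2-fold with K149 were not counted. Whether the shares differ between the 9 genes and the other 27 was not tested, nor was any part of a motif in the falls.

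**Figure D2:**
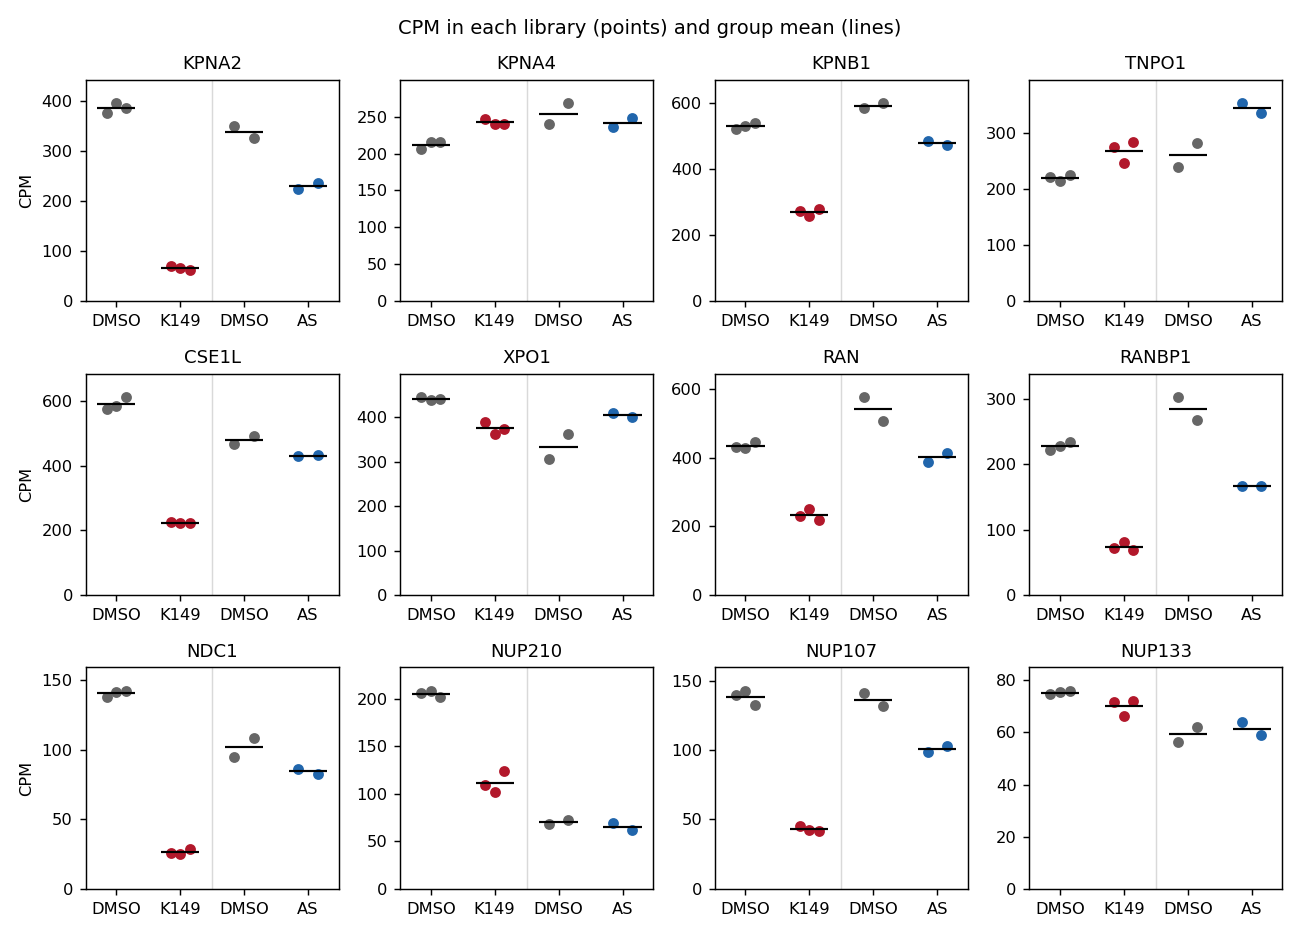
CPM (vertical axes, each from 0) of 12 of the genes in every library (points) with group means (lines), with the K149 arm left and the AS1949490 arm right of each vertical line. KPNA2, NDC1, CSE1L, RANBP1 and NUP107 drop with K149 without overlap, NUP133 stays between 56.45 and 75.86 CPM in all 10 libraries, and NUP210 differs between the DMSO groups of the arms.

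The outer ring, or Y complex, is the scaffold that coats the curved pore membrane. With K149, 7 of its 8 genes fell, and with AS1949490, 6 fell, against 30.6% and 19.5% of all genes tested. NUP107, a core subunit, had 139.4, 142.4 and 132.7 CPM in the DMSO libraries and 45.07, 42.33 and 41.75 CPM with K149, a log2 fold of -1.66 ± 0.05 (SE, adjusted p = 5.19e-12). With AS1949490 NUP107 had 140.9 and 131.4 CPM with DMSO and 98.58 and 102.8 CPM with the inhibitor, a log2 fold of -0.43 ± 0.06 (SE, adjusted p = 0.000126). NUP85, which lies in a short arm of the Y, had 76.16, 71.31 and 68.81 CPM in the DMSO libraries and 22.04, 23.24 and 20.83 CPM with K149, a log2 fold of -1.67 ± 0.06 (SE, adjusted p = 3.57e-11). Its values in the AS1949490 arm were 94.92 and 85.75 CPM with DMSO and 57.91 and 56.06 CPM with the inhibitor, and its log2 fold of -0.65 ± 0.08 (SE, adjusted p = 1.87e-05) was the lowest among nucleoporins there. NUP37, a propeller subunit, had 98.99, 98.39 and 105.1 CPM in the DMSO libraries and 42.47, 45.53 and 37.61 CPM with K149, with log2 folds of -1.25 ± 0.07 (SE, adjusted p = 2.41e-09) for K149 and -0.51 ± 0.09 (SE, adjusted p = 0.000283) for AS1949490. In these 3 genes, every treated library was below every DMSO library of its arm.

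Within the same complex, NUP133, which contacts the membrane, had 74.71, 75.35 and 75.86 CPM in the DMSO libraries and 71.75, 66.47 and 71.87 CPM with K149. Its log2 fold of -0.1 ± 0.06 (SE, adjusted p = 0.123) passed the threshold under TMM scaling (-0.14, adjusted p = 0.0402). SEC13, which is shared with the COPII coat of secretory vesicles, had 146.4, 142.6 and 143.4 CPM in the DMSO libraries and 124.1, 130.9 and 120.6 CPM with K149, a log2 fold of -0.2 ± 0.05 (SE, adjusted p = 0.00235). With AS1949490 SEC13 had 199.5 and 186.0 CPM with DMSO and 144.8 and 150.1 CPM with the inhibitor, a log2 fold of -0.38 ± 0.06 (SE, adjusted p = 0.000169), although the difference between the effects, 0.18 ± 0.08 (SE, adjusted p = 0.0794), was not called. NUP160 had log2 folds of -0.61 ± 0.08 (SE, adjusted p = 7.59e-06) with K149 and -0.25 ± 0.09 (SE, adjusted p = 0.0382) with AS1949490. SEH1L, which also belongs to the GATOR2 regulator of mTORC1, had log2 folds of -0.45 ± 0.05 (SE, adjusted p = 2.75e-06) with K149 and -0.18 ± 0.06 (SE, adjusted p = 0.0278) with AS1949490. NUP43 fell with K149, at a log2 fold of -0.55 ± 0.07 (SE, adjusted p = 7.94e-06), and its AS1949490 libraries (41.17 and 41.22 CPM) lay between the DMSO libraries (35.72 and 42.58 CPM). With AS1949490, the calls of SEH1L and NUP160 were both lost without DMSO replicate 2 (adjusted p = 0.181 and 0.258) or AS1949490 replicate 1 (0.176 and 0.127), and that of NUP160 also without AS1949490 replicate 2 (0.114) or any DMSO library of the K149 arm (0.0526 to 0.0556).

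The shares of 7 of the 8 outer ring genes in their summed level separated the K149 libraries from their controls. Per kb of exon, SEC13 made up 20.1%, 19.9% and 19.8% of the summed level of the 8 genes in the DMSO libraries and 28.2%, 30.0% and 28.4% with K149. NUP107 went from 12.5%, 13.0% and 12.0% to 6.7%, 6.35% and 6.44%, and NUP85 from 10.9%, 10.4% and 9.98% to 5.25%, 5.59% and 5.15%. The share of NUP133 grew, from 9.17%, 9.41% and 9.4% to 14.6%, 13.6% and 15.2%. A share grows when a gene falls less than the others, and in its own level SEC13 fell and NUP133 had no call with K149. Each of these shares separated the groups completely (exact two-sided permutation p = 0.1, the smallest that 3 against 3 allows). In the AS1949490 arm, the share of SEC13 was 26.4% and 24.9% with DMSO and 24.8% and 25.1% with the inhibitor, so the groups overlapped. The shares of NUP107 (12.2% and 11.5% with DMSO, 11.1% and 11.2% with the inhibitor), NUP85 (13.2% and 12.0%, 10.4% and 9.82%) and NUP133 (6.68% and 7.46%, 9.82% and 8.84%) separated the groups in the same directions as with K149 (exact two-sided permutation p = 0.333, the smallest that 2 against 2 allows). The share of NUP160 overlapped in both arms, with 8.61%, 8.44% and 8.43% in the DMSO libraries and 9.36%, 8.1% and 10.3% with K149 (exact two-sided permutation p = 0.4).

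All 5 genes of the inner ring fell with both inhibitors, against 13.3% of all genes tested. Their median log2 folds were -1.04 for K149 and -0.33 for AS1949490. NUP205, a large scaffold subunit, had 132.1, 130.4 and 134.7 CPM in the DMSO libraries and 50.02, 42.68 and 53.14 CPM with K149, a log2 fold of -1.43 ± 0.07 (SE, adjusted p = 3.69e-10). NUP188, its structural relative, had 126.6, 118.7 and 122.7 CPM in the DMSO libraries and 89.84, 85.56 and 86.66 CPM with K149, a log2 fold of -0.49 ± 0.05 (SE, adjusted p = 7.55e-07). NUP205 thus fell to 36.7% and NUP188 to 71.2% of the DMSO mean. With AS1949490 their log2 folds were -0.25 ± 0.08 (SE, adjusted p = 0.0229) and -0.33 ± 0.06 (SE, adjusted p = 0.000373). The effects of the inhibitors on NUP205 differed by -1.19 ± 0.11 (SE, adjusted p = 1.33e-06). The difference for NUP188, -0.15 ± 0.07 (SE, adjusted p = 0.123), was not called. The fall of NUP205 with AS1949490 lost its call without DMSO replicate 1 (adjusted p = 0.0881), AS1949490 replicate 1 (0.101) or AS1949490 replicate 2 (0.0734) of that arm.

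NUP93, which links the inner ring to the channel nucleoporins, had 94.55, 104.6 and 98.85 CPM in the DMSO libraries and 41.32, 43.23 and 39.51 CPM with K149, a log2 fold of -1.24 ± 0.06 (SE, adjusted p = 2.13e-10). Its values in the other arm were 121.1 and 114.5 CPM with DMSO and 80.04 and 81.49 CPM with the inhibitor, a log2 fold of -0.54 ± 0.07 (SE, adjusted p = 3.1e-05). NUP35, a small subunit that binds membrane, had the lowest CPM of the 40 genes in every group, with 30.03, 31.08 and 31.63 CPM in the DMSO libraries and 13.84, 13.99 and 15.63 CPM with K149 and log2 folds of -1.04 ± 0.07 (SE, adjusted p = 9.81e-09) for K149 and -0.52 ± 0.08 (SE, adjusted p = 0.000171) for AS1949490. NUP155, which connects the rings, had log2 folds of -0.93 ± 0.05 (SE, adjusted p = 1.04e-09) and -0.23 ± 0.06 (SE, adjusted p = 0.00505). In NUP93, NUP35 and NUP155 the treated libraries were all below the DMSO libraries of their arm. The difference between the effects was called for each of them, at -0.71 ± 0.09 (SE, adjusted p = 2.94e-05) for NUP93, -0.52 ± 0.11 (SE, adjusted p = 0.00153) for NUP35 and -0.69 ± 0.08 (SE, adjusted p = 8.52e-06) for NUP155.

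Of the channel nucleoporins, whose phenylalanine-glycine repeats form the permeability barrier, NUP62 had 187.1, 185.7 and 186.9 CPM in the DMSO libraries and 95.84, 99.2 and 95.89 CPM with K149. The log2 folds of NUP62 were -0.94 ± 0.04 (SE, adjusted p = 2.06e-10) with K149 and -0.35 ± 0.05 (SE, adjusted p = 0.000103) with AS1949490. Its exons share 21.1% of their bases with ATF5 on the opposite strand, and since the use of strand in counting is not stated, its reads cannot be told apart from those of ATF5 there. NUP54 fell with K149, at a log2 fold of -0.65 ± 0.06 (SE, adjusted p = 3.02e-07). With AS1949490 NUP54 had 45.06 and 47.73 CPM with DMSO and 43.47 and 42.62 CPM with the inhibitor, and its log2 fold of -0.11 ± 0.07 (SE, adjusted p = 0.23) became a call under TMM scaling (-0.19, adjusted p = 0.0355).

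Besides NDC1, the membrane and anchor group holds NUP210, POM121 and AAAS. NUP210, a transmembrane nucleoporin whose expression differs widely between tissues, had 205.8, 208.3 and 202.5 CPM in the DMSO libraries and 109.0, 101.8 and 124.5 CPM with K149, a log2 fold of -0.88 ± 0.07 (SE, adjusted p = 1.13e-07). In the AS1949490 arm all libraries were below the K149 libraries, with 68.05 and 73.01 CPM with DMSO and 69.85 and 61.51 CPM with the inhibitor. The log2 fold with AS1949490 was -0.1 ± 0.09 (SE, adjusted p = 0.338), and the groups overlapped. Between the DMSO libraries of the arms, NUP210 was higher in the K149 arm by 1.53 ± 0.08 (SE, adjusted p = 1.53e-09). AAAS, which encodes ALADIN, fell with both, at log2 folds of -0.4 ± 0.06 (SE, adjusted p = 7.98e-05) and -0.33 ± 0.08 (SE, adjusted p = 0.00359).

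POM121, a membrane nucleoporin of early pore assembly, was at 99.7% of the DMSO mean with K149, with 147.2, 141.2 and 133.8 CPM in the DMSO libraries and 142.3, 134.3 and 144.5 CPM with K149, and the groups overlapped. The 95% interval of its log2 fold was -0.12 to 0.11 for K149 and -0.1 to 0.19 for AS1949490. POM121 has a near copy, POM121C, at group means of 113, 117, 176 and 186 CPM in the DMSO and K149 libraries and the DMSO and AS1949490 libraries in turn, so reads may have been split between them, and 18.9% of its exon bases overlap NSUN5P2.

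The 3 nucleoporins of the cytoplasmic face, where cargo complexes are released, showed 1 fall with K149 and 1 rise with AS1949490. Of all genes tested, 30.6% fell with K149 and 32.1% rose with AS1949490, so both counts were near the background. NUP88 fell with K149, with 101.2, 99.14 and 99.4 CPM in the DMSO libraries and 57.11, 59.47 and 60.93 CPM with K149 and a log2 fold of -0.75 ± 0.05 (SE, adjusted p = 1.05e-08). NUP88 shares 18.7% of its exon bases with RPAIN, and with AS1949490 its log2 fold of -0.07 ± 0.06 (SE, adjusted p = 0.347) became a call under TMM scaling (-0.15, adjusted p = 0.0447). NUP214, its binding partner, had 73.56, 68.61 and 65.82 CPM in the DMSO libraries and 72.41, 63.37 and 69.02 CPM with K149, and the groups overlapped. The 95% interval of the log2 fold of NUP214 was -0.15 to 0.11 with K149 and -0.11 to 0.21 with AS1949490. RANBP2, the large SUMO ligase that binds RAN and RANGAP1, had 152.1, 152.1 and 160.9 CPM in the DMSO libraries and 160.5, 137.7 and 155.8 CPM with K149, again with overlap. With AS1949490 RANBP2 had 122.2 and 150.4 CPM with DMSO and 196.3 and 183.2 CPM with the inhibitor, and it rose with a log2 fold of 0.48 ± 0.09 (SE, adjusted p = 0.000772), the highest log2 fold of the 40 genes in that arm. In edgeR on the 8 libraries this was 0.25 (adjusted p = 0.0264). The effects of the inhibitors on RANBP2 differed by -0.52 ± 0.12 (SE, adjusted p = 0.00366).

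All 3 basket genes fell with K149, and none was called with AS1949490 in limma. Of all genes tested, 30.6% fell with K149, and 19.5% fell and 32.1% rose with AS1949490. NUP50, a mobile nucleoporin that promotes cargo release, had 120.1, 118.1 and 118.3 CPM in the DMSO libraries and 59.76, 54.92 and 62.43 CPM with K149. Its AS1949490 values were 83.93 and 94.9 CPM with DMSO and 93.93 and 87.89 CPM with the inhibitor, with overlap, and the 95% interval of that log2 fold was -0.14 to 0.19. The effects on NUP50 differed by -1.02 ± 0.1 (SE, adjusted p = 2.2e-06). NUP153, which holds the basket at the ring, fell with a log2 fold of -0.35 ± 0.08 (SE, adjusted p = 0.00172) with K149. With AS1949490 NUP153 had 77.14 and 89.9 CPM with DMSO and 77.64 and 73.55 CPM with the inhibitor, with overlap. Its log2 fold there of -0.14 ± 0.1 (SE, adjusted p = 0.255 in limma) became a call in DESeq2 (-0.25, adjusted p = 0.045) and in edgeR on 8 libraries (-0.33, adjusted p = 0.00603). With K149, TPR, the coiled-coil filament of the basket, fell with a log2 fold of -0.25 ± 0.07 (SE, adjusted p = 0.0043). The difference between the effects on TPR, -0.31 ± 0.1 (SE, adjusted p = 0.0323), lost its call under TMM scaling (adjusted p = 0.0631) and without DMSO replicate 2 (0.0622) or 3 (0.0734) or K149 replicate 2 (0.0532) or 3 (0.0545) of the K149 arm, or DMSO replicate 1 (0.123) or AS1949490 replicate 1 (0.161) of the other. NUP98, a mobile repeat nucleoporin, fell with a log2 fold of -0.39 ± 0.05 (SE, adjusted p = 2.33e-05) with K149, and its partner in mRNA export, RAE1, fell with a log2 fold of -0.15 ± 0.06 (SE, adjusted p = 0.028). RAE1 also fell with AS1949490, at a log2 fold of -0.27 ± 0.07 (SE, adjusted p = 0.0051). The K149 call of RAE1 was lost without any of the 3 DMSO libraries (adjusted p = 0.0707, 0.0811 and 0.054 for replicates 1 to 3) or without K149 replicate 1 (0.0739) or 3 (0.117), and its AS1949490 call without AS1949490 replicate 1 (0.0521).

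The 3 genes of the RAN cycle fell with both inhibitors, against 13.3% of all genes tested. RAN itself had 431.4, 427.2 and 444.6 CPM in the DMSO libraries and 230.5, 249.9 and 219.2 CPM with K149, a log2 fold of -0.9 ± 0.06 (SE, adjusted p = 1.45e-08). With AS1949490 RAN had 575.5 and 507.5 CPM with DMSO and 386.7 and 414.1 CPM with the inhibitor, a log2 fold of -0.43 ± 0.07 (SE, adjusted p = 0.0003). RANBP1, which helps to strip RAN-GTP from receptors in the cytoplasm, had 222.6, 227.5 and 234.8 CPM in the DMSO libraries and 71.75, 81.46 and 69.12 CPM with K149, a log2 fold of -1.61 ± 0.06 (SE, adjusted p = 5.82e-11). With AS1949490 RANBP1 had 302.5 and 267.0 CPM with DMSO and 167.0 and 167.2 CPM with the inhibitor, and its log2 fold of -0.76 ± 0.08 (SE, adjusted p = 6.24e-06) was the lowest of the 40 genes in that arm. RCC1, the exchange factor on chromatin, had 188.1, 189.8 and 194.8 CPM in the DMSO libraries and 96.69, 102.6 and 103.6 CPM with K149, with log2 folds of -0.91 ± 0.04 (SE, adjusted p = 6.13e-10) and -0.32 ± 0.06 (SE, adjusted p = 0.00036). In all 3 genes the treated libraries were below the DMSO libraries in both arms. The share of all genes tested that did so was not counted. RANBP1 shares 11.2% of its exon bases with TRMT2A.

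Relative to RAN, RANBP1 was lower in the treated libraries. The ratio of RANBP1 to RAN in CPM per kb of exon was 0.539, 0.556 and 0.551 in the DMSO controls of K149 and 0.325, 0.34 and 0.329 with K149. For AS1949490 it was 0.549 and 0.549 with DMSO and 0.451 and 0.422 with the inhibitor. The ratio was lower in every treated library (exact two-sided permutation p = 0.1 and 0.333, the smallest that 3 against 3 and 2 against 2 allow).

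Among the importin alpha adaptors, only KPNA2 was called as fallen. KPNA1 had 124.0, 125.5 and 135.2 CPM in the DMSO libraries and 157.9, 151.8 and 160.6 CPM with K149, and it rose with a log2 fold of 0.29 ± 0.05 (SE, adjusted p = 0.000224). It also rose with AS1949490, from 134.0 and 132.6 CPM to 150.6 and 163.2 CPM, at a log2 fold of 0.23 ± 0.06 (SE, adjusted p = 0.00732). That call was lost without AS1949490 replicate 2 (adjusted p = 0.0893) and under TMM scaling (0.0745), and 16.3% of the exon bases of KPNA1 overlap AC083798.2. KPNA4 had 205.5, 215.1 and 215.2 CPM in the DMSO libraries and 246.8, 239.7 and 240.1 CPM with K149, a log2 fold of 0.19 ± 0.05 (SE, adjusted p = 0.00393), while with AS1949490 it had 240.1 and 267.7 CPM with DMSO and 235.4 and 247.5 CPM with the inhibitor, with overlap, and a log2 fold of -0.07 ± 0.06 (SE, adjusted p = 0.353) that became a fall under TMM scaling (-0.16, adjusted p = 0.0483). KPNA4 was the only 1 of the 40 genes for which the effect of K149 was called above that of AS1949490, by 0.26 ± 0.08 (SE, adjusted p = 0.0176), and this call was lost without DMSO replicate 2 (adjusted p = 0.0595) or AS1949490 replicate 1 (0.0853) of the AS1949490 arm. KPNA3 had 85.45, 84.6 and 86.81 CPM in the DMSO libraries and 76.55, 72.41 and 80.36 CPM with K149, below DMSO in every K149 library, and its log2 fold of -0.16 ± 0.07 (SE, adjusted p = 0.0516) sat at the threshold, passing it under TMM scaling (-0.2, adjusted p = 0.0194) and without K149 replicate 3 (0.0387) or either DMSO library of the AS1949490 arm (0.00767 and 0.00779). With AS1949490 KPNA3 had 60.2 and 74.31 CPM with DMSO and 87.89 and 88.29 CPM with the inhibitor and rose with a log2 fold of 0.39 ± 0.08 (SE, adjusted p = 0.00176). Without DMSO replicate 1 of that arm the rise of KPNA3 was 0.24 (adjusted p = 0.0151), and edgeR on the 8 libraries did not call it (0.16, adjusted p = 0.076).

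The order of the importin alpha transcripts differed between the groups. Per kb of exon, KPNA2 made up 68.3%, 69.0% and 67.8% of the summed level of the 4 adaptors in the DMSO controls of K149 and 26.8%, 26.2% and 24.3% with K149. KPNA4 went from 12.5%, 12.5% and 12.6% to 31.0%, 31.5% and 30.9%, and KPNA1 from 8.37%, 8.13% and 8.83% to 22.1%, 22.2% and 23.0%. KPNA4 was thus the most abundant of the 4 in each K149 library, and KPNA2 in each of the other libraries. With AS1949490 the share of KPNA2 went from 67.0% and 63.2% to 53.4% and 53.6%. The shares did not overlap between groups in either arm (exact two-sided permutation p = 0.1 and 0.333, the smallest possible).

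**Figure D3:**
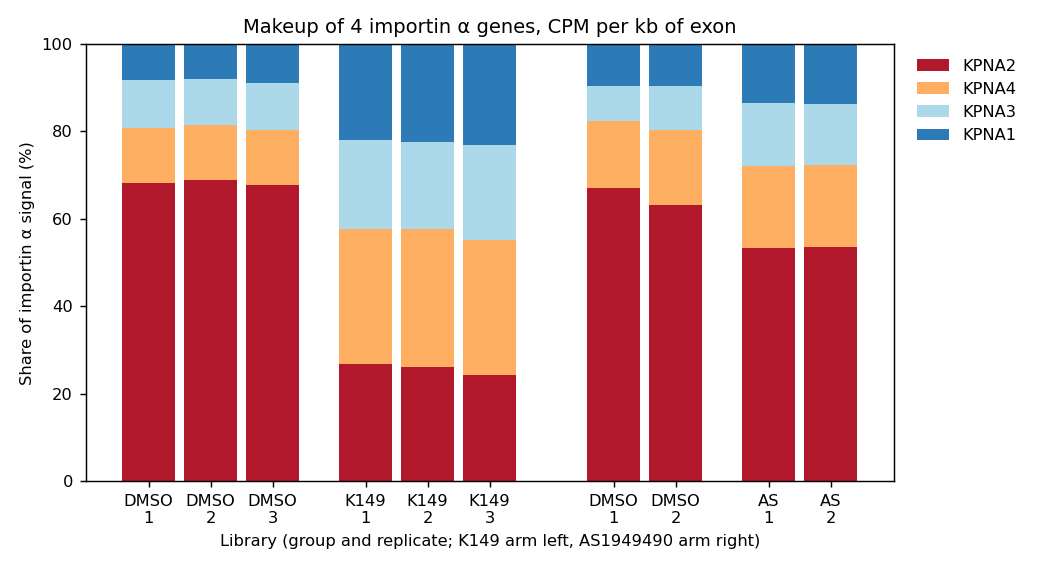
Share (vertical axis, %) of each of 4 importin alpha genes in their summed CPM per kb of exon, 1 bar per library, with the K149 arm left and the AS1949490 arm right. The KPNA2 share is 67.8% to 69.0% in the DMSO controls of K149 and 24.3% to 26.8% with K149.

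The import receptors of the importin beta family split by gene. KPNB1, importin beta itself, had 521.6, 529.3 and 539.7 CPM in the DMSO libraries and 274.4, 258.9 and 278.7 CPM with K149, and it fell with a log2 fold of -0.97 ± 0.04 (SE, adjusted p = 2.39e-10). With AS1949490 KPNB1 had 585.6 and 597.9 CPM with DMSO and 484.9 and 472.8 CPM with the inhibitor, a log2 fold of -0.31 ± 0.05 (SE, adjusted p = 0.000407). IPO5, a carrier of ribosomal proteins and histones, had 287.4, 285.9 and 284.4 CPM in the DMSO libraries and 155.8, 149.4 and 154.4 CPM with K149, and it fell with a log2 fold of -0.9 ± 0.05 (SE, adjusted p = 2.61e-09). With AS1949490 its values were 278.0 and 315.1 CPM with DMSO and 301.2 and 288.2 CPM with the inhibitor, with overlap, and the 95% interval of the log2 fold was -0.14 to 0.13. The effects on IPO5 differed by -0.89 ± 0.08 (SE, adjusted p = 1.35e-06).

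TNPO1, the carrier of many RNA-binding proteins, had 221.8, 214.8 and 224.6 CPM in the DMSO libraries and 274.6, 245.9 and 283.0 CPM with K149, above DMSO in every K149 library, and it rose with a log2 fold of 0.28 ± 0.07 (SE, adjusted p = 0.00203). With AS1949490 TNPO1 had 238.7 and 281.6 CPM with DMSO and 352.2 and 334.9 CPM with the inhibitor, and it rose with a log2 fold of 0.4 ± 0.08 (SE, adjusted p = 0.000998), which was 0.2 (adjusted p = 0.0332) in edgeR on the 8 libraries. IPO7, another carrier of ribosomal proteins, had 355.6, 356.6 and 363.5 CPM in the DMSO libraries and 337.2, 291.8 and 348.0 CPM with K149, and its log2 fold of -0.14 ± 0.08 (SE, adjusted p = 0.134) passed the threshold without DMSO replicate 1 (adjusted p = 0.0399) or 2 (0.0404) of the AS1949490 arm, which the fit uses for its estimate of the spread. With AS1949490 IPO7 had 301.9 and 382.8 CPM with DMSO and 438.6 and 409.5 CPM with the inhibitor, and its log2 fold of 0.32 ± 0.1 (SE, adjusted p = 0.0158) lost its call without DMSO replicate 1 (0.15, adjusted p = 0.192) or AS1949490 replicate 1 (0.109) of that arm and under TMM scaling (0.061).

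XPO1, the exportin of leucine-rich export signals, moved in opposite directions in the arms. It had 444.7, 437.6 and 441.4 CPM in the DMSO libraries and 389.9, 361.3 and 373.3 CPM with K149, a log2 fold of -0.24 ± 0.06 (SE, adjusted p = 0.00239). In the AS1949490 arm XPO1 had 306.2 and 361.2 CPM in the DMSO libraries and 409.8 and 400.2 CPM with AS1949490, a log2 fold of 0.28 ± 0.07 (SE, adjusted p = 0.00412) that edgeR on the 8 libraries whose whole reads could be recovered did not call (0.08, adjusted p = 0.32), nor did DESeq2 (0.17, adjusted p = 0.0556). Without DMSO replicate 1 of that arm, limma gave 0.16 (adjusted p = 0.0435). The difference between the effects was -0.52 ± 0.09 (SE, adjusted p = 0.000481). The DMSO libraries of the arms also differed, by 0.41 ± 0.06 (SE, adjusted p = 7.54e-05), so that the treated libraries of both arms (361.3 to 389.9 and 400.2 to 409.8 CPM) lay closer together than the DMSO libraries.

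Joined over both inhibitors, 21 of the 40 genes fell with both, 9 fell with K149 without a call for AS1949490, and XPO1 fell with K149 and rose with AS1949490. KPNA1 and TNPO1 rose with both, KPNA4 rose with K149 without a call for AS1949490, and RANBP2, KPNA3 and IPO7 rose with AS1949490 without a call for K149. NUP133, POM121 and NUP214 had no call with either. Over all genes tested, 13.3% fell with both, 14.1% fell with K149 without a call for AS1949490, and 3.18% fell with K149 and rose with AS1949490. A rise with both was called for 20.3%, with K149 alone for 13.7%, with AS1949490 alone for 8.64%, and no call for 20.6%. Rises with both were thus less frequent among the 40 genes. Of all genes tested that fell with K149, 43.4% also fell with AS1949490, against 21 of 31 here. The test of the difference itself placed the effect of K149 below that of AS1949490 for 29 of the 40 genes and above it for 1, against 25.3% and 15.1% of all genes tested, with a median difference of -0.53, against -0.07 over all genes. These are differences between 2 µM of K149 and 20 µM of AS1949490, each against its own controls.

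Of the 27 nucleoporins, 23 fell and 0 rose with K149 (median log2 fold -0.61), and 15 fell and 1 rose with AS1949490 (median -0.23). Of the 10 transport receptors, 5 fell and 3 rose with K149 (median -0.2), and 3 fell and 5 rose with AS1949490 (median 0.11). Of all genes tested, 30.6% fell and 35.8% rose with K149, and 19.5% fell and 32.1% rose with AS1949490, so the share of receptors that rose with K149 was near that of all genes. The summed level of the 10 receptors was 3197, 3228 and 3287 CPM in the DMSO libraries and 2209, 2059 and 2203 CPM with K149, whereas in the AS1949490 arm it was 2962 and 3230 CPM with DMSO and 3114 and 3075 CPM with the inhibitor, with overlap.

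Between the DMSO libraries of the arms, 12 of the 40 genes were higher and 16 lower in the K149 arm, against 37.1% and 29.1% of all genes tested. NUP210 was the only 1 of the 40 that differed 2-fold. Of all 17837 genes tested, 1189 were at least 2-fold higher and 764 at least 2-fold lower in the K149 arm. The next in size was NUP188, with 126.6, 118.7 and 122.7 CPM in the K149 arm and 197.3 and 189.0 CPM in the AS1949490 arm, a log2 difference of -0.65 ± 0.05 (SE, adjusted p = 1.4e-07). NUP153 was lower in the K149 arm by -0.52 ± 0.09 (SE, adjusted p = 0.000185), and NDC1 was higher by 0.46 ± 0.07 (SE, adjusted p = 7.04e-05). The difference of effects between the inhibitors uses these same DMSO libraries.

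Per kb of exon, CSE1L was the most abundant of the 40 genes in every group, with a mean of 155 ± 4.87 CPM per kb (SD, n = 3) in the DMSO controls of K149, followed by KPNA2 at 123, RAN at 90.0 and KPNB1 at 69.1. IPO7, RANBP1 and RCC1 followed at 49.5, 49.4 and 49.1 CPM per kb, and NUP214 was last at 5.31. With K149 the order became CSE1L at 58.6, RAN at 48.3, IPO7 at 45.0 and KPNB1 at 35.3, and KPNA2 came after 10 other genes at 21.3. With AS1949490 the first 4 were CSE1L at 113, RAN at 83.0, KPNA2 at 73.5 and KPNB1 at 62.4. Exon length here is the union of all annotated exons of a gene, which lowers the value of genes with rare long isoforms.

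Of 47 tested genes of a wider list of nucleoporins, receptors, RAN regulators and mRNA export factors, 30 fell and 4 rose with K149 (median log2 fold -0.27), and 21 fell and 11 rose with AS1949490 (median -0.11). Over all genes tested the shares were 30.6% and 35.8% with K149 and 19.5% and 32.1% with AS1949490, so that rises among the 47 were less frequent than the background in both comparisons. RANGAP1, the GTPase activator of RAN, had 273.7, 272.3 and 260.1 CPM in the DMSO libraries and 131.2, 144.7 and 128.8 CPM with K149, a log2 fold of -0.99 ± 0.05 (SE, adjusted p = 1.08e-09), and fell with AS1949490 by -0.57 ± 0.06 (SE, adjusted p = 1.18e-05). Among 15 other receptors, KPNA5, a further importin alpha, rose with a log2 fold of 0.72 ± 0.14 (SE, adjusted p = 0.000378) with K149 and 0.73 ± 0.17 (SE, adjusted p = 0.00267) with AS1949490, and KPNA6 rose with a log2 fold of 0.33 ± 0.05 (SE, adjusted p = 6.52e-05) and 0.34 ± 0.06 (SE, adjusted p = 0.000555). IPO9, an importin of histones, had 166.9, 164.5 and 166.3 CPM in the DMSO libraries and 94.74, 85.91 and 96.24 CPM with K149, a log2 fold of -0.84 ± 0.05 (SE, adjusted p = 4.99e-09), and fell with AS1949490 by -0.21 ± 0.06 (SE, adjusted p = 0.0133). IPO4 fell further, by -1.05 ± 0.06 (SE, adjusted p = 1.86e-09) with K149 and -0.43 ± 0.07 (SE, adjusted p = 0.000236) with AS1949490. However, 70.1% of the exon bases of IPO4 overlap AL136295.4. In total, 9 of these 15 receptors fell and 3 rose with K149, and 3 fell and 7 rose with AS1949490. XPOT, the exportin of tRNA, had 183.8 and 204.0 CPM in the DMSO libraries and 353.1 and 354.4 CPM with AS1949490 and rose with a log2 fold of 0.87 ± 0.06 (SE, adjusted p = 4.54e-07), while its K149 libraries had 215.6, 199.7 and 218.7 CPM against 213.2, 220.0 and 218.5 CPM with DMSO.

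Of 19 mRNA export genes, 14 fell and 1 rose with K149 (median log2 fold -0.4), and 14 fell and 2 rose with AS1949490 (median -0.34), against 30.6% and 35.8% of all genes tested with K149 and 19.5% and 32.1% with AS1949490. DDX39A, an RNA helicase of the export complex, had 100.2, 102.6 and 102.4 CPM in the DMSO libraries and 32.78, 37.68 and 32.16 CPM with K149, with log2 folds of -1.55 ± 0.07 (SE, adjusted p = 1.62e-10) for K149 and -0.88 ± 0.08 (SE, adjusted p = 3.28e-06) for AS1949490. THOC6, a subunit of the THO complex, fell with a log2 fold of -1.25 ± 0.08 (SE, adjusted p = 6.09e-09) and -0.94 ± 0.09 (SE, adjusted p = 4.83e-06), and ALYREF, the export adaptor, fell with a log2 fold of -0.91 ± 0.1 (SE, adjusted p = 1.16e-05) with AS1949490 and -1.14 ± 0.08 (SE, adjusted p = 3.97e-08) with K149. THOC2, the large THO subunit, was called in opposite directions. It had 50.56 and 66.27 CPM in the DMSO libraries and 90.84 and 82.29 CPM with AS1949490, a log2 fold of 0.57 ± 0.11 (SE, adjusted p = 0.00108), and 94.8, 98.89 and 95.8 CPM in the DMSO libraries and 84.65, 67.76 and 78.21 CPM with K149, a log2 fold of -0.33 ± 0.09 (SE, adjusted p = 0.00684). The effects on THOC2 differed by -0.9 ± 0.15 (SE, adjusted p = 0.000317), and its DMSO libraries differed between the arms by 0.73 ± 0.1 (SE, adjusted p = 3.64e-05), higher in the K149 arm.

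The 2 comparator lists give the scale of these changes. All 16 replication licensing and replisome genes, which follow the division of cells, fell with both inhibitors, with median log2 folds of -3.29 for K149 and -0.78 for AS1949490. All 20 ribosome biogenesis genes fell with K149 (median -0.68), and 15 fell and 1 rose with AS1949490 (median -0.37). The shares over all genes tested were 30.6% fallen and 35.8% risen with K149, and 19.5% and 32.1% with AS1949490. Both lists were chosen with earlier results of these data known. The median of the 40 pore and transport genes, -0.63 and -0.16, lay near that of ribosome biogenesis for K149, and KPNA2 and NDC1, at -2.51 and -2.36, lay within the range of the licensing genes (-4.68 to -1.87). The part of cell division or growth in the changes of the 40 genes was not tested.

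**Figure D4:**
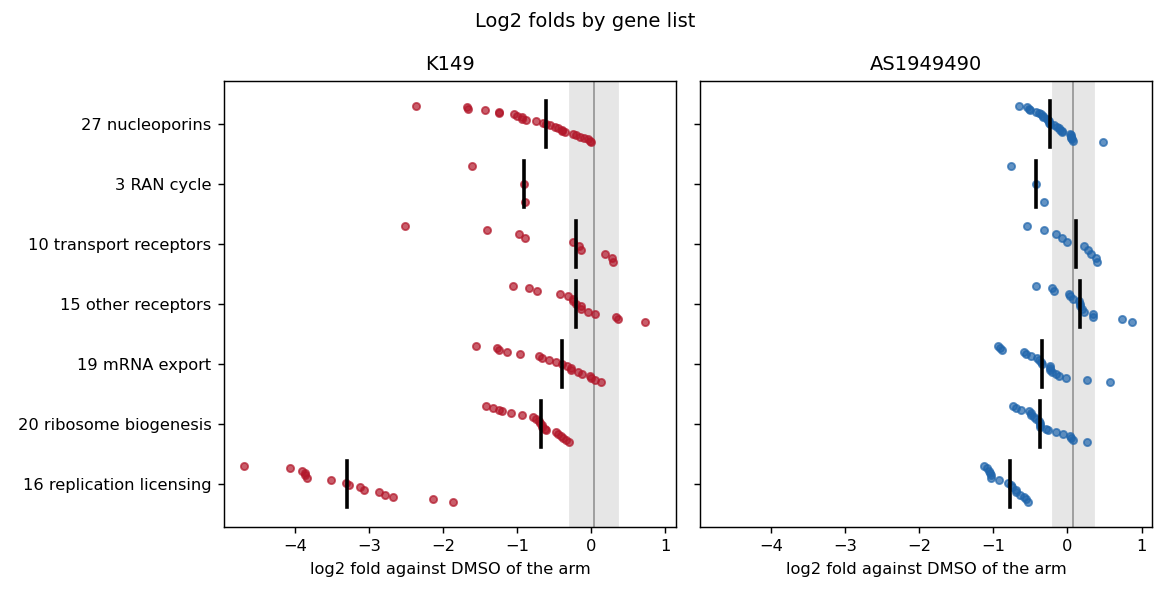
Log2 folds (horizontal axes) of single genes (points) with the median of each list (black bars) for K149 (left) and AS1949490 (right); the grey band and line are the interquartile range and the median of all 17837 genes tested. With K149 the 27 nucleoporins centre at -0.61 and the 16 replication licensing genes at -3.29.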

How the data were processed

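Per the labels' protocols, RNA of KYSE-410 cells was extracted on columns with DNase treatment and sequencing libraries were made with a NuGen Ovation Solo kit. Reads were aligned and counted with STAR 2.5.3a and HTSeq (no version named) on hg38, per the submitters' processing notes, and annotation and strand setting were not stated. The authors deposited 1 table of CPM for 58302 gene IDs, of which 58039 matched GENCODE 29 on GRCh38 (source of positions and exon lengths) and 263 did not. In each library 100% of the values were whole multiples of about 0.05 CPM (within 0.1 of a step), from which whole reads were recovered for count tests in 8 libraries; the other 2 (K149 replicate 3 and, in the AS1949490 arm, DMSO replicate 1) had no value at the lowest step, so the test on all 10 takes their steps as reads. The common step is not explained in the sources, so the read depth of each library is unknown.

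Titles gave the groups, but DMSO replicate 3 of the K149 arm was placed by its library name. The 17837 genes whose mean reached 1 CPM in any of the 4 groups were fitted together over the 10 libraries on log2(CPM + 1), using limma 3.58.1 under R 4.3.3 with a mean-variance trend and 1 mean per group. P-values were adjusted by Benjamini-Hochberg over all genes tested, and the threshold was 0.05. The scale understates changes of low genes. The fit was also run on simulated data, with few changed genes and a common spread. These settings differ from the data, so that run does not show the error rate here.

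The members and lists were chosen with earlier results of these data known. Every member could be named; of the wider lists, at most the 3 called genes with the largest log2 fold in each direction per list and comparison, to which the value with the other inhibitor was added. Promoters are RefSeq (GRCh38.p14), and no genome sequence was read by coordinates. Alternatives were other pseudocounts (0.1 and 5), filters and scalings, edgeR 4.0.16 and DESeq2 1.42.0 on recovered reads, fits by arm, a replicate block, and leaving out each library; edgeR on 8 libraries and a crossed block were added after seeing the data.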

Additional observations from a re-analysis of the deposited data

How the results depend on the processing

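No log2 fold of the 40 genes that was called reversed under the alternatives run, and the counts that fell or rose with K149 (31 and 3) stayed at 30 to 34 and at 3 in all of them. Of the 6 genes that rose with AS1949490, 4 did so under TMM scaling, 3 in DESeq2 and 2 in edgeR on 8 libraries; the cause was not tested. The 1 gene with the K149 effect above that of AS1949490 became 2 under TMM scaling, median-centring, edgeR and DESeq2, SEC13 being added, and 0 without AS1949490 replicate 1. Leaving out each library in turn gave 30 to 33 falls and 3 to 3 rises with K149, 16 to 21 falls and 5 to 6 rises with AS1949490, 26 to 30 effects below and 0 to 1 above, and 10 to 13 genes higher and 14 to 17 lower in the DMSO controls of K149. Where a group is left with 1 library, that library is assumed to vary like the others. EdgeR on recovered reads of all 10 libraries called 11793 genes with K149 and 9119 with AS1949490, against 11837 and 9205 in limma.

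The shared replicate numbers were not taken to pair the libraries: same-numbered libraries of the K149 arm had correlated deviations of 0.101, 0.046 and -0.012. With a replicate block, 30 genes fell and 3 rose with K149, 19 fell and 6 rose with AS1949490, 28 effects lay below and 1 above, and 9 genes were higher and 11 lower in the DMSO controls of K149. Not every library correlated best with its own number. In the AS1949490 arm the numbers are those of the titles, while the library names carry the numbers 1 and 3 for DMSO and 2 and 3 for the inhibitor, so only the number 3 is shared there. The correlation by title number was -0.242, and with crossed numbers 21 genes fell and 6 rose there.

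Precision is limited by 2 libraries per group in the AS1949490 arm, where log2 folds under about 0.3 often lost their call without 1 library. All 40 genes lay far above the CPM step.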
